A study of Mus musculus with 6 samples.

Results

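The genes described here act in the clearance of lipoprotein particles by the liver: the receptors Vldlr, Lrp1, Lrp5 and Lrp6, the lipolysis-stimulated receptor Lsr, the heparan sulfate proteoglycan Sdc1, and Mylip, a ubiquitin ligase that sends receptors of this family to the lysosome. All 7 listed genes were found by their platform gene symbol, among 22180 genes with a single symbol. They had 10 of the 41345 probe sets, and the probe set with the highest mean over the 6 arrays stood for each gene. The arrays came from livers of mice of 8 weeks of age on a normal diet, all CREB-H KO (Creb3l3tm1.1Sad/J). In the CREB-H group, 3 mice had received AAV-CREB-H-ΔTC, an adeno-associated virus for the liver that carries the active form of the transcription factor CREB-H, and in the GFP group 3 mice had received AAV-GFP. Livers were taken 2 weeks after the intraperitoneal injection, and every mouse, controls included, lacked its own CREB-H. The labels do not name the promoter of the vector, and no group with intact CREB-H was analysed here.

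Remnants of chylomicrons and very-low-density lipoproteins enter the space beside the hepatocyte, are held there by heparan sulfate chains, mainly those of syndecan-1, and are then taken up by receptors that recognise apolipoprotein E. LRP1 is the large endocytic receptor of that route, the VLDL receptor is scarce in healthy liver, and LSR takes up particles in the presence of free fatty acids. LRP5 and LRP6 belong to the same receptor family but are best known as Wnt coreceptors. The abundance of several of these receptors is set after transcription too, by Mylip, which the oxysterol receptor LXR induces, so that mRNA signals do not report receptor protein.

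None of the 7 genes passed the test between the groups. In limma's moderated test, adjusted by Benjamini-Hochberg over the whole array, 0 of 7 had an adjusted p under 0.05, against 0.00484% of all probe sets. At an unadjusted p under 0.05 there was 1 of 7, Sdc1, against 5.73% of genes. CREB-H livers overlapped GFP livers in all 7 genes, whereas the groups did not overlap in 12.3% of genes. Of the 7 differences, 4 were above 0 (50.8% of genes were), and their median was 0.12 on the log2 scale, against 0.003 for all genes. The differences ran from -0.51 in Sdc1 to 0.28 in Vldlr. The plot of the 7 genes by array shows each value.

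**Figure D1:**
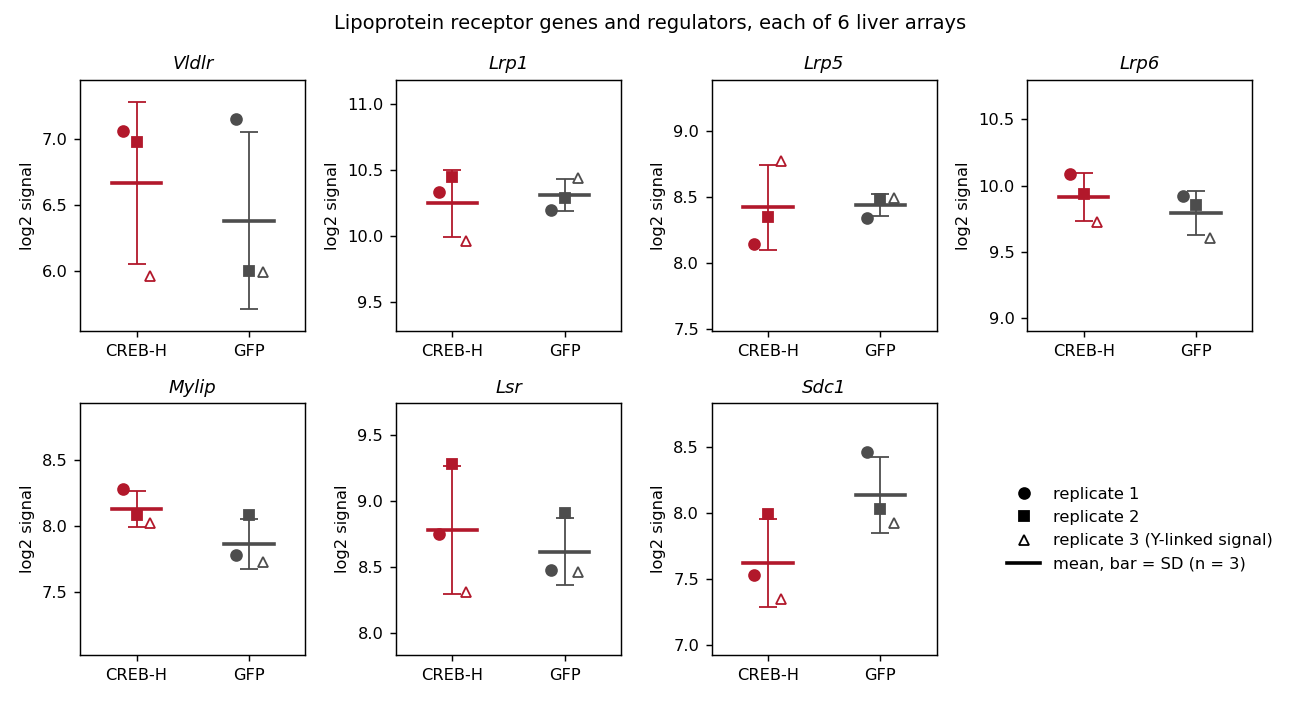
Log2 signal (vertical axes, each spanning 1.9 log2 units) of the 7 genes in CREB-H livers (red) and GFP livers (grey); each symbol is 1 array, the thick line is the mean and the bar the SD of 3 arrays. The groups overlap in every gene, and the replicate 3 arrays, drawn open, carry Y-linked signal.

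The arrays were similar in overall level, with medians from 4.98 to 5.01 on the log2 scale, and their number sets the limit on precision. The 7 hepatocyte markers had signals of at least 10.9 on each array. The supplied gene Creb3l3 read 6.73, 7.25 and 7.58 in CREB-H livers, against 6.55, 5.93 and 6.40 in GFP livers, in the direction of the labels (log2 difference 0.89, SE 0.25, limma adjusted p = 0.647). Apoa4, a known CREB-H target that codes for an apolipoprotein, passed (3.70, SE 0.18, limma adjusted p = 0.00786). Its call held in 10 of 17 alternatives; over all 17 the log2 difference was 3.50 to 3.86 and the limma adjusted p reached 0.516. Replicate 3 of each group carried Y-linked signal, with a mean of 7.67 for CREB-H and 7.83 for GFP over Kdm5d, Eif2s3y and Uty, and at most 3.39 on the others. The labels give no sex, so each difference is also given for the 4 arrays without that signal and for the pair with it.

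Sdc1, the syndecan whose heparan sulfate holds remnant particles at the hepatocyte surface, had the largest difference of the 7 genes. Its log2 signals (probe set 17273948, Entrez 20969, chromosome 12) were 7.53, 7.99 and 7.35 in CREB-H livers, against 8.46, 8.03 and 7.92 in GFP livers. A pair of CREB-H arrays lay below every GFP array, while CREB-H replicate 2 lay just above GFP replicate 3. The mean was 7.62 ± 0.33 in CREB-H livers and 8.14 ± 0.29 in GFP livers (SD, n = 3 each). The log2 difference was -0.51 (SE 0.21), a ratio of 0.7004 with a 95% interval of 0.493 to 0.996. The limma unadjusted p was 0.0479 and the adjusted p was 0.723, so the difference did not pass. The exact two-sided permutation p was 0.2, where 3 against 3 arrays cannot go below 0.1. Its further probe set (17547680) read 5.98, 6.33 and 6.07 in CREB-H livers, against 6.94, 6.42 and 6.26 in GFP livers, a log2 difference of -0.41 (SE 0.20, limma adjusted p = 0.769). Both probe sets placed GFP replicate 1 highest. The difference was -0.48 in the 4 arrays without Y-linked signal and -0.57 in the pair with it, and from -0.70 to -0.35 with any single array left out. In whole liver, fewer cells of a type and less RNA per cell cannot be told apart. Sdc1 also marks plasma cells. The summed linear signal of the 6 plasma cell markers was 718 to 955 in CREB-H livers and 611 to 1163 in GFP livers, most of it from Xbp1, which hepatocytes also express and which read 9.44, 9.16 and 9.71 in CREB-H livers, against 8.95, 9.51 and 10.04 in GFP livers. Of these markers 3 were higher and 3 lower with CREB-H and none passed. The higher ones were Tnfrsf17 (0.26, SE 0.11), Irf4 (0.14, SE 0.10) and Mzb1 (0.05, SE 0.12). The lower ones were Xbp1 (-0.07, SE 0.29), Jchain (-0.10, SE 0.46) and Tnfrsf13b (-0.08, SE 0.20). Only Tnfrsf17 had an unadjusted p under 0.05, against 5.73% of all genes. The groups did not overlap in Tnfrsf17 and Irf4 (12.3% of all genes did not overlap). Jchain read at most 5.42 in CREB-H livers and 5.52 in GFP livers. Tnfrsf13b was dim, from 3.32 in CREB-H replicate 1 to 4.02 in GFP replicate 2. The dimmest 25% of probe sets averaged under 3.79. The mean of the list had a correlation of r = -0.07 with Sdc1 over the 6 arrays. The part of plasma cells in the difference of Sdc1 was not tested.

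The sequence before the start of Sdc1 is shown because this gene differed most, so that matches to elements of the CREB and ATF factors, to which CREB-H belongs, can be seen. It is given 5′ to 3′ from RefSeq (GRCm38.p6, chr12:8771146-8771395, + strand, the 250 bases before the annotated start), with matches in capitals.
Sdc1: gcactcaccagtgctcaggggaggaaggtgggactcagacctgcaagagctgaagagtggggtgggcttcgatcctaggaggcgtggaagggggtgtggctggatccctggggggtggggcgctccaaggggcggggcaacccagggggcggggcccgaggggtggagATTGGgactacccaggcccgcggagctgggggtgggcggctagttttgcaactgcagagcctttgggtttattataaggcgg
Searched on both strands, it held neither TGACG, the core of the cAMP response element, nor the full element TGACGTCA, nor ACGTG, the core of unfolded protein response elements, which shares letters with TGACG where TGACGTG occurs. These were present in 17.8%, 1.55% and 16.6% of the 32851 windows of this length. Its single match was a CCAAT box, which starts 82 bases upstream on the opposite strand (33.8% of windows hold one). The windows of the 5 genes found in the table, 6 in all, held none of TGACG, TGACGTCA and ACGTG; Lrp5 and Lrp6 were not among them. The absence of these letters from a window says nothing of binding elsewhere.

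Other heparan sulfate proteoglycans and their sheddases were a list of 16 genes, all measured, of which none passed. At an unadjusted p under 0.05 there were 3, all higher with CREB-H (3.29% of genes were higher at that threshold and 2.43% lower). The list had 15 differences above 0 and 1 below, with a median of 0.18. Sdc4, another syndecan of the liver, read 11.67, 11.84 and 11.92 in CREB-H livers, against 11.43, 11.42 and 11.02 in GFP livers. The groups did not overlap, with a log2 difference of 0.52 (SE 0.15, limma adjusted p = 0.647). It was 0.33 in the 4 arrays without Y-linked signal and 0.90 in the pair with it. Gpc1, a glypican named after its values were seen, read 7.05, 6.26 and 7.90 in CREB-H livers and 5.60, 5.56 and 5.74 in GFP livers (1.44, SE 0.38, limma adjusted p = 0.626). Differences were 0.14 (SE 0.12) in Sdc2, 0.0033 (SE 0.17) in the glypican Gpc4 and 0.04 (SE 0.13) in Adam17, a protease that sheds syndecan-1. The log2 signal of Sdc4 minus that of Sdc1 was 4.14, 3.85 and 4.57 in CREB-H livers, against 2.97, 3.39 and 3.09 in GFP livers, without overlap. This pair was chosen after the values were seen, so that its values are a description with no test.

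Enzymes that build or trim heparan sulfate gave 24 measured genes of 25, with 19 differences above 0, 5 below and a median of 0.09. None passed, and 3 had an unadjusted p under 0.05, 2 higher and 1 lower. Across all genes 3.29% were higher at that threshold and 2.43% lower. Ext1, which polymerises the chain, differed by 0.15 (SE 0.12), and Hs2st1, the uronyl O-sulfotransferase whose product remnants bind, by 0.017 (SE 0.12). The genes under that threshold, named after their values were seen, were the sulfatases Sulf1 (0.52, SE 0.19) and Sulf2 (0.86, SE 0.29), which remove sulfate from the chains, and Ugdh (-0.46, SE 0.14), which makes UDP-glucuronic acid. Sulf2 read 8.54, 8.17 and 8.90 in CREB-H livers and 8.11, 7.81 and 7.11 in GFP livers. Its difference was 0.40 in the 4 arrays without Y-linked signal and 1.79 in the pair with it.

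Mylip, the ubiquitin ligase also called IDOL, was 8.28, 8.08 and 8.02 in CREB-H livers and 7.78, 8.08 and 7.72 in GFP livers on the log2 scale (probe set 17286962, Entrez 218203, chromosome 13). GFP replicate 2 equalled CREB-H replicate 2 to the second decimal and lay above CREB-H replicate 3, so the groups overlapped. The mean was 8.13 ± 0.14 in CREB-H livers and 7.86 ± 0.19 in GFP livers (SD, n = 3 each). The log2 difference of 0.26 (SE 0.14, limma adjusted p = 0.793) is a ratio of 1.20, with a 95% interval of 0.959 to 1.504. It was 0.25 in the 4 arrays without Y-linked signal, 0.30 in the pair with it, and 0.19 to 0.37 with any single array left out. Mylip went with the markers of liver endothelial cells over the 6 arrays (r = 0.93 with the mean of 8 markers, from 56 such correlations of 8 marker lists with 7 genes). Of these 8 markers 7 were higher and 1 lower with CREB-H and none passed, and their summed linear signal was 5469 to 6069 in CREB-H livers and 4919 to 6035 in GFP livers. Mylip also went with the markers of Kupffer cells (r = 0.81), all 7 of which were higher, and of lymphocytes (r = 0.73). With the remaining lists r was from 0.32 (plasma cells) to 0.57 (stellate cells). The part of these cells in the difference of Mylip was not tested.

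The upstream sequence of Mylip is shown because the gene had the lowest unadjusted p after Sdc1. It comes from RefSeq (GRCm38.p6, chr13:45389492-45389741, + strand, 250 bases before the start), with matches in capitals.
Mylip: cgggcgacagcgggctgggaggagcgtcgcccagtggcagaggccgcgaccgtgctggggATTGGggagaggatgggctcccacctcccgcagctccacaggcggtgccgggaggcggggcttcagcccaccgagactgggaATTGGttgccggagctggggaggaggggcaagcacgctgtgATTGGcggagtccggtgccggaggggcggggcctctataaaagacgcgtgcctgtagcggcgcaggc
It held 3 CCAAT boxes, on the opposite strand at 190, 108 and 67 bases upstream. TGACG, TGACGTCA and ACGTG were not matched here either.

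The LXR axis and the ubiquitin partners of Mylip gave 13 measured genes of 17, 8 higher and 5 lower, with a median log2 difference of 0.09. None passed, and 3, all higher, had an unadjusted p under 0.05 (3.29% of all genes were higher at that threshold). Nr1h3, which codes for LXR alpha, read 7.69, 7.81 and 7.59 in CREB-H livers, against 7.74, 7.93 and 7.79 in GFP livers (-0.13, SE 0.11). Ube2d1, a ubiquitin-conjugating enzyme that works with Mylip, differed by 0.20 (SE 0.15). The 3 genes under that threshold were Abcg5 (0.57, SE 0.10) and Abcg8 (0.45, SE 0.13), the sterol exporter, and Srebf1 (0.65, SE 0.23), the lipogenic regulator; all are LXR targets and were named after their values were seen. Abca1, a further LXR target named after its values were seen, differed by -0.20 (SE 0.12), with CREB-H arrays at 9.26, 9.23 and 9.10 and GFP arrays at 9.27, 9.36 and 9.56. CREB-H livers did not overlap GFP livers in Abcg5, Abcg8 and Srebf1, which were higher, or in Abca1, which was lower. Across all genes 12.3% did not overlap, in either direction.

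Vldlr, a receptor that binds apolipoprotein E-rich particles, was the most variable of the 7 genes. Its log2 signals (probe set 17358422, Entrez 22359, chromosome 19) were 7.06, 6.97 and 5.96 in CREB-H livers, against 7.15, 6.001 and 5.99 in GFP livers. Arrays of either group stood at 6.97 or above, or at 6.001 or below, with none between. The mean was 6.66 ± 0.61 in CREB-H livers and 6.38 ± 0.67 in GFP livers (SD, n = 3 each). The log2 difference was 0.28 (SE 0.41, limma adjusted p = 0.928), a ratio of 1.22 with a 95% interval of 0.621 to 2.39. The residual SD of Vldlr, 0.639, was at percentile 97.1 of all probe sets. Both arrays with Y-linked signal were low (difference -0.03), but so was GFP replicate 2, which lacks it; the difference in the 4 arrays without that signal was 0.44. It was 0.67 without GFP replicate 1 and 0.64 without CREB-H replicate 3. Leaving out any of the other 4 arrays gave 0.09 to 0.13.

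The genes most like Vldlr over the 6 arrays, by Pearson's r among 11926 genes of at least median signal, were Tm4sf4 (r = 0.990), a tetraspanin-like membrane protein of liver and gut, and Cast (r = 0.987), which codes for the calpain inhibitor calpastatin. Tm4sf4 read 10.48, 10.53 and 9.98 in CREB-H livers and 10.55, 9.94 and 10.02 in GFP livers. Of the genes compared, 71 (0.595%) had r above 0.9 with Vldlr. Such values describe 6 arrays that share their normalization.

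**Figure D2:**
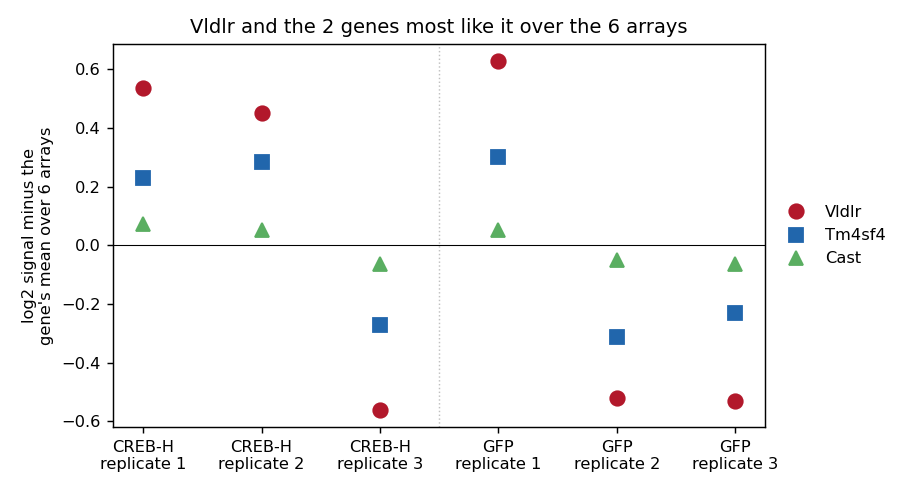
Log2 signal minus the gene's mean over 6 arrays (vertical axis) for Vldlr, Tm4sf4 and Cast on each of the 3 CREB-H and 3 GFP arrays (horizontal axis). CREB-H replicates 1 and 2 and GFP replicate 1 are high and the other 3 arrays are low in all 3 genes.

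Vldlr has 2 annotated starts in the RefSeq table, and the window before the downstream one is shown because it alone among the 6 windows held the ATF4 composite element TGATGNAA, the site through which the stress factor ATF4 induces genes. ATF4 is a bZIP factor, as CREB-H is, and is a known inducer of Vldlr in liver under stress of the endoplasmic reticulum. The sequence is GRCm38.p6, chr19:27216770-27217019, + strand, with matches in capitals.
Vldlr: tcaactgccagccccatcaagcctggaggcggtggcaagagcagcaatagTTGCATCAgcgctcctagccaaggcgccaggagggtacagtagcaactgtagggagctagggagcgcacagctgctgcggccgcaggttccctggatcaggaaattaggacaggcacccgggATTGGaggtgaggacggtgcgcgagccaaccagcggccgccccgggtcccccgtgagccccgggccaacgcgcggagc
The element reads TTGCATCA on this strand and starts 200 bases upstream. Across all windows 3.45% hold one. As this window was chosen for its match, that share is no test of the match. Binding of ATF4 or CREB-H here was not tested. The start from which the measured transcripts came was not analysed here.

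Genes of the ATF4, PPAR, HIF and NRF2 pathways, through which Vldlr is induced, and its ligand reelin were 14 measured genes of 14. They had 8 differences above 0, 6 below and a median of 0.01. Not all are inducers: Keap1 holds NRF2 back (-0.15, SE 0.11). None of the 14 passed, and 4 had an unadjusted p under 0.05, 3 higher and 1 lower. Across all genes 3.29% were higher at that threshold and 2.43% lower. The 4 genes are named after their values were seen. They were the receptors Ppara (0.63, SE 0.19), Pparg (0.93, SE 0.33) and Ppard (0.37, SE 0.14), and the stress factor Ddit3 (-0.37, SE 0.12). Atf4 itself read 7.61, 7.75 and 7.96 in CREB-H livers, against 8.08, 7.84 and 8.08 in GFP livers (-0.23, SE 0.13). Pparg was 7.60, 6.73 and 7.08 in CREB-H livers and 5.85, 5.92 and 6.85 in GFP livers.

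Lrp1, a large endocytic receptor for remnants, had a difference smaller than the spread of its arrays. It read 10.33, 10.44 and 9.96 in CREB-H livers, against 10.20, 10.29 and 10.44 in GFP livers (probe set 17245923, Entrez 16971, chromosome 10). CREB-H replicate 3 was the lowest array and CREB-H replicate 2 the highest. The log2 difference was -0.06 (SE 0.15, limma adjusted p = 0.965), a ratio of 0.959 with a 95% interval of 0.746 to 1.23. It turned sign by array: it was 0.15 in the 4 arrays without Y-linked signal and -0.47 in the pair with it. The difference between these was -0.62 (SE 0.21), with a limma unadjusted p of 0.0364 and an adjusted p of 0.709, and rests on 1 array of each group. Lrp1 was most like Notum, which codes for a secreted Wnt inhibitor (r = 0.990), and Mup-ps12, a pseudogene of the major urinary proteins (r = 0.983).

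Lrp5 and Lrp6, the Wnt coreceptors, had intervals around no change. Lrp5 (probe set 17360977, Entrez 16973, chromosome 19) was 8.14, 8.35 and 8.77 in CREB-H livers and 8.34, 8.49 and 8.49 in GFP livers. CREB-H arrays held both the lowest and the highest value. The log2 difference was -0.02 (SE 0.17, limma adjusted p = 0.993), a ratio of 0.988 with a 95% interval of 0.745 to 1.31. It was -0.17 in the 4 arrays without Y-linked signal and 0.28 in the pair with it. Lrp6 (probe set 17471995, Entrez 16974, chromosome 6) was 10.08, 9.93 and 9.73 in CREB-H livers and 9.92, 9.85 and 9.60 in GFP livers, and the groups overlapped. Its log2 difference was 0.12 (SE 0.14, limma adjusted p = 0.908), a ratio of 1.09 with a 95% interval of 0.864 to 1.37, and it was 0.12 both in the 4 arrays and in the pair. It was 0.22 without CREB-H replicate 3 and 0.19 without GFP replicate 1, but 0.038 without CREB-H replicate 1 and 0.029 without GFP replicate 3. A further probe set of Lrp6 (17548528) had 0.16 (SE 0.16). Over the 6 arrays the signals of Lrp5 and Lrp6 ran in opposite directions (r = -0.77), and Lrp5 was also opposed to Vldlr (r = -0.80), while Lrp6 went with Vldlr (r = 0.81). These are the extremes of 21 pairs among the 7 genes, given as a description.

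Wnt ligands, antagonists and partners of these coreceptors were 30 genes, all measured, with 20 differences above 0, 10 below and a median of 0.03. None passed, and 1, Fzd8 (0.58, SE 0.24, named after its value was seen), had an unadjusted p under 0.05, against 5.73% of all genes. Axin2, a target of Wnt signalling, read 6.31, 6.23 and 6.32 in CREB-H livers, against 6.37, 6.24 and 6.66 in GFP livers (-0.14, SE 0.13). Leaving out GFP replicate 3 gave -0.017, whereas leaving out GFP replicate 2 gave -0.23. The other receptors of the family and their chaperones gave 11 measured genes of 13, with 7 differences above 0, 4 below and a median of 0.07. None passed, and 1 was under an unadjusted p of 0.05, Lrp11 (0.30, SE 0.12, named after its value was seen), against 5.73% of all genes. Lrpap1, the chaperone that keeps ligands off LRP1 during its folding, differed by 0.04 (SE 0.10), and the sorting receptor Sorl1 by 0.07 (SE 0.17). Lrp8, a reelin and apolipoprotein E receptor and a target of Mylip, differed by -0.02 (SE 0.15), Lrp10 by 0.20 (SE 0.16) and Lrp4 by -0.08 (SE 0.32). In Lrp4, CREB-H replicate 3 was low, at 6.70 against 7.92 and 7.92 in the other CREB-H arrays and 7.50 to 7.70 in GFP arrays.

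Lsr, a receptor for triglyceride-rich particles that also forms tricellular junctions, was 8.75, 9.27 and 8.31 in CREB-H livers and 8.48, 8.90 and 8.46 in GFP livers (probe set 17489384, Entrez 54135, chromosome 7). CREB-H arrays held both ends of the range. The log2 difference was 0.16 (SE 0.26, limma adjusted p = 0.937), a ratio of 1.12 with a 95% interval of 0.734 to 1.70. It was 0.32 in the 4 arrays without Y-linked signal, -0.15 in the pair with it and -0.09 without CREB-H replicate 2. The further probe set (17476568) read 6.76, 6.76 and 6.59 in CREB-H livers and 6.87, 6.75 and 6.57 in GFP livers, a difference of -0.03 (SE 0.12), opposite in sign. Lsr went with stellate cell markers (r = 0.92), lymphocyte markers (r = 0.86) and Kupffer cell markers (r = 0.84) over the 6 arrays. It also went with markers of liver endothelial cells (r = 0.74), plasma cells (r = 0.64) and hepatocytes (r = 0.64), so it was not particular to 1 cell type. These values were picked from the same 56 correlations. The 7 Kupffer cell markers were all higher with CREB-H, by 0.33 to 0.60, none passing. None of the 7 had an unadjusted p under 0.05 (5.73% of all genes did). Their summed linear signal was 2493 to 4593 in CREB-H livers and 1867 to 3795 in GFP livers, and no marker was below 5.82 on any array. For the 7 stellate cell markers the sum was 3344 to 4311 in CREB-H livers and 2986 to 3666 in GFP livers. Most of that sum came from Dcn, which read 11.41, 11.55 and 11.31 in CREB-H livers, against 11.25, 11.36 and 11.01 in GFP livers. Of the stellate cell markers 6 were higher with CREB-H and 1, Des, was lower (-0.15, SE 0.11). For the 6 lymphocyte markers measured it was 320 to 428 in CREB-H livers and 309 to 456 in GFP livers. Of these 4 were higher and 2 lower with CREB-H, from -0.30 in Cd3g to 0.57 in Cd79a. The T cell genes Cd3e (-0.14, SE 0.15) and Cd3g were the lower ones. Only Cd79a, a B cell gene, had a limma unadjusted p under 0.05 (0.0145), against 5.73% of all genes. It was also the only one without overlap (12.3% of all genes did not overlap). Ptprc, a general leucocyte gene, had the highest signal of the list on each array. The part of these cells in the signal of Lsr was not tested.

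Relatives of Lsr and junction partners gave 11 measured genes of 12, with 8 differences above 0, 3 below and a median of 0.06. None passed and none had an unadjusted p under 0.05, against 5.73% of all genes. Marveld2, the tricellular junction protein, differed by 0.15 (SE 0.26) and Ildr2, a relative of Lsr, by 0.08 (SE 0.36). Endocytic adaptors and recycling proteins gave 18 measured genes of 21, 10 higher and 8 lower, with a median of 0.01. None of them passed or had an unadjusted p under 0.05, against 5.73% of all genes. The groups did not overlap in 1 of them, Cltc, named after its values were seen (-0.09, SE 0.09). Across all genes 12.3% did not overlap. Dab2, an adaptor for receptors of this family, differed by -0.06 (SE 0.11), and Snx17, which returns LRP1 to the surface, by -0.016 (SE 0.098), or 0.0016 with each array centred on its median.

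**Figure D3:**
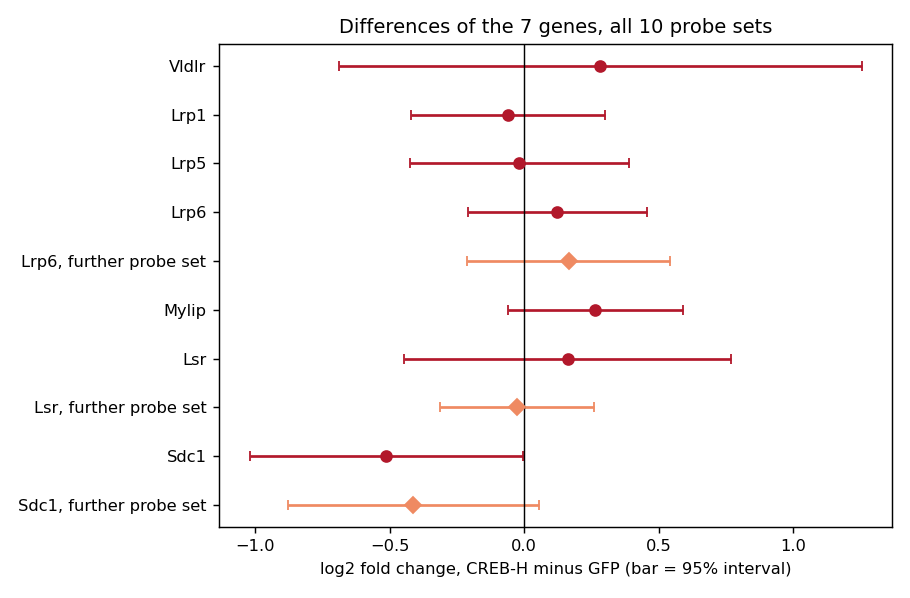
Log2 fold change, CREB-H minus GFP (horizontal axis), of the 10 probe sets of the 7 genes (rows), with 95% intervals from limma; circles are the probe sets that stand for the gene and diamonds the further ones. All intervals include 0 but that of the circle of Sdc1, which ends at -0.0063, and the widest is that of Vldlr.

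Apolipoprotein ligands, lipases and scavenger receptors of remnant uptake gave 15 measured genes of 16, with 11 differences above 0, 4 below and a median of 0.13. None passed, and 3, all higher, had an unadjusted p under 0.05 (3.29% of all genes were higher at that threshold). They were Apoc2 (1.28, SE 0.19), Apoa5 (0.46, SE 0.17) and Scarb1 (0.45, SE 0.10), all named after their values were seen. Apoe, the main ligand of these receptors, read 10.32, 9.995 and 10.69 in CREB-H livers, against 10.09, 9.88 and 10.0005 in GFP livers (0.35, SE 0.18, limma adjusted p = 0.798). It was 0.17 without CREB-H replicate 3. The plot of genes by role sets all lists beside the 7 genes.

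**Figure D4:**
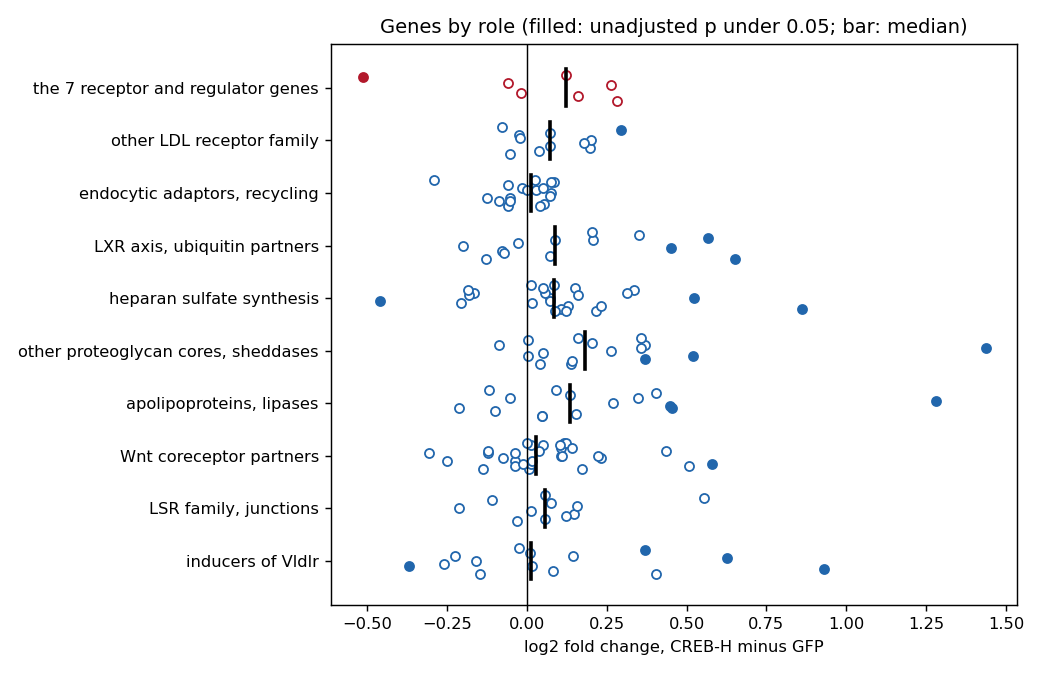
Log2 fold change, CREB-H minus GFP (horizontal axis), of each measured gene in the 7 receptor and regulator genes (red, top) and 9 lists of related genes (blue); filled points have an unadjusted limma p under 0.05 and the black bar is the median. The medians lie between 0.01 and 0.18, and no point passed after adjustment.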

How the data were processed

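Each of 6 arrays held biotin-labelled cDNA from 1 liver, per the labels' protocols. The table the authors deposited gives a log2 signal for each probe set and array. It was made with the Transcriptome Analysis Console (submitters' processing notes); the sources used here state neither its version nor the normalization or filters. That the values are log2 follows from their range and near-equal quartiles. Background and detection calls were not analysed here, which can shrink the differences of dim probe sets. No array repeated another.

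Probe sets were named from the platform annotation of GEO (23521 probe sets with 1 symbol, 1814 with several, 16010 not listed). The Entrez ID of 23328 was in the RefSeq table of GRCm38.p6. All 41345 probe sets were fitted with limma 3.58.1 in R 4.3.3 (lmFit, eBayes, group as the only term), two-sided, with Benjamini-Hochberg adjustment and a threshold of 0.05. The fit was tested on simulated data. An SE is moderated, and 95% intervals use 6.83 degrees of freedom. Single genes had an exact permutation test over arrays.

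The 7 genes, the 9 role lists, the 8 marker lists (216 different genes in all, 202 measured) and the named genes were chosen with earlier results of these data known. Named genes were the 7, a set fixed by role, and for each of the 7 the 2 genes of highest r. Some genes of that set, Ndst1 and Lipc among them, were not analysed here. Alternatives were quantile normalization, median centring, removal of dim probe sets, array weights, limma-trend (plain or robust), a replicate block, single arrays left out, a term for Y-linked signal (mean above 5), the 4 arrays without it, 1 probe set per gene and averaging the probe sets of each gene. Upstream sequences are the 250 bases before each start in RefSeq's table (5 of 7 genes found). Figures used matplotlib 3.10.9.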

Additional observations from a re-analysis of the deposited data

How the results depend on the processing

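No alternative gave any of the 7 genes an adjusted p under 0.05: of 126 values, 118 kept their direction and 8 turned sign. Scaling moved the median of all probe sets by under 0.1, to 0.0047 under quantile normalization and 0.0028 after centring, from -0.015. Over the alternatives the adjusted p of Sdc1 ran from 0.530 to 0.917. Leaving out single arrays gave -0.16 to 0.081 for Lrp1, -0.19 to 0.12 for Lrp5 and -0.087 to 0.39 for Lsr, and Lrp1 was 0.15 in the 4 arrays without Y-linked signal. It also turned the sign of Lrpap1 (-0.019 to 0.071), Sorl1 (-0.016 to 0.23), Lrp4 (-0.28 to 0.33), Lrp8 (-0.13 to 0.084), Dab2 (-0.11 to 0.0092), Snx17 (-0.066 to 0.013), Hs2st1 (-0.074 to 0.11), Gpc4 (-0.077 to 0.15), Adam17 (-0.041 to 0.14), Ildr2 (-0.28 to 0.35) and Marveld2 (-0.14 to 0.40). In the 4 arrays Lrp4 was 0.28, Dab2 0.031 and Ildr2 -0.024; Lrp4 was 0.043 with array weights and Snx17 0.0016 after centring. The cause was not tested. With single arrays left out, list medians were -0.016 to 0.15 for the other receptors, -0.021 to 0.063 for adaptors and -0.028 to 0.11 for relatives of Lsr. They were -0.11 to 0.20 for the pathways of Vldlr induction. These ranges all spanned 0. Medians of the other 5 lists stayed above 0, the lowest at 0.016. The count of probe sets passing, 2 of 41345, was 0 to 2 with single arrays left out (2335 to 3155 at an unadjusted p under 0.05), 1 with a term for Y-linked signal and 0 in the 4 arrays, where 3338 had an unadjusted limma p under 0.05, and 3 genes with 1 probe set per gene (1515 unadjusted). With the replicate number as a block it was 0 (3224 unadjusted). Deviations of same-numbered arrays correlated at 0.08, 0.13 and 0.33, and CREB-H replicate 1 correlated best with GFP replicate 2, so the numbers were not taken to pair the mice; under the block no gene of the 7 changed sign or passed.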

Other observations

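The remaining genes most like each of the 7 over the 6 arrays came from mixed functions. Sdc1 was most like the ribosomal protein gene Rpl26 (r = 0.993) and the ribosomal pseudogene Rpl34-ps2 (r = 0.990). Rpl26 read 5.38, 5.58 and 5.29 in CREB-H livers, against 5.85, 5.57 and 5.55 in GFP livers. Lrp5 was most like Supt7l, a subunit of a transcription coactivator complex (r = 0.9995), and Cog8, of the Golgi tethering complex (r = 0.994). Supt7l read 6.92, 7.06 and 7.35 in CREB-H livers and 7.05, 7.15 and 7.14 in GFP livers. Lrp6 was most like Cox7c, of cytochrome c oxidase (r = 0.995). Mylip was most like the transporter Abcc1 (r = 0.994) and Klhl32 (r = 0.992), and Lsr most like the protease Adam10 (r = 0.994) and the leucocyte gene Lrrc25 (r = 0.993). For Lrp6, 185 of 11926 genes (1.55%) had r above 0.9, the most of the 7.

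The markers of cell types not yet described overlapped between the groups in their sums. The 5 cholangiocyte markers measured had a summed linear signal of 140 to 149 in CREB-H livers and 140 to 162 in GFP livers, and the 6 muscle markers of 182 to 199 in CREB-H livers and 178 to 220 in GFP livers. None of these markers passed. Within the cholangiocyte list the groups did not overlap in Krt19 or Sox9 (12.3% of all genes did not overlap). Krt19 was higher by 0.38 with CREB-H (SE 0.12, limma unadjusted p = 0.0182, adjusted p = 0.673). Sox9 was lower, with a difference of -0.36 (SE 0.11, limma unadjusted p = 0.0156, adjusted p = 0.652).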
